A study of Mus musculus with 4 samples.

Results

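MHC class I molecules display peptides from inside the cell on its surface, where CD8+ T cells and NK cells read them. The proteasome cuts the peptides, the transporter of antigen processing (TAP) carries them into the endoplasmic reticulum, and tapasin helps to load them onto a heavy chain paired with β2-microglobulin. Interferons raise the transcription of these genes in many cell types, and the transactivator NLRC5 and factors of the NF-kB family bind to class I promoters.

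The genes described here are 10 of the 25814 genes listed for each library, chosen by symbol. They are the heavy chains H2-K1, H2-D1 and H2-T23, the light chain B2m, the TAP subunits Tap1 and Tap2, tapasin (Tapbp), the immunoproteasome subunits Psmb8 and Psmb9, and Nlrc5. They were compared between 2 wild-type (WT) and 2 Nfat5-/- libraries of poly(A) RNA from untreated keratinocytes (KCs), the main cells of the epidermis. The KCs came from tails of adult mice, all of the 129/sv strain, and were grown in serum-free medium with low calcium. Nfat5 encodes NFAT5, a transcription factor activated by osmotic stress, and the labels name no restriction of the knockout to KCs. Per the study's methods, WT mice were siblings of the Nfat5-/- mice, and tails were shipped overnight on ice before the cells were prepared.

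The 4 libraries held between 16219445 and 23494436 gene reads. Nfat5 itself had 408 and 929 reads in the WT libraries and 715 and 770 in the libraries labelled Nfat5-/-, a fitted log2 fold change of 0.09 ± 0.26 (SE, as for all fitted changes below). Reads of the whole gene therefore did not separate the labels. The deleted part is not given in the sources used here, and the count does not measure the NFAT5 protein, which the study examined by Western blot and which was not analysed here, so the groups are named below as labelled. KC markers were abundant, with a summed level between 11100 and 12900 RPKM (exon reads divided by exon length and library size). Of the 10 leukocyte markers listed, 9 were analysed and 8 lay under 1 RPKM in every library. The sum of the 9, almost all of it Cd68, was 21.1 and 14.7 RPKM in WT KCs against 17 and 17.2 RPKM in Nfat5-/- KCs. In bulk RNA, fewer cells of a type and less RNA per cell cannot be told apart.

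The class I heavy chains are close copies of each other, and reads from a shared stretch cannot be assigned to 1 gene. Exon 4, which encodes the membrane-proximal α3 domain, shows this for the pair of classical heavy chains. It is 276 bases long in H2-K1 (chr17:33997285-33997560, minus strand, GRCm38) and in H2-D1 (chr17:35265784-35266059, plus strand), and 11 bases differ, which are in capitals. The longest coding run without a difference is 91 bases, longer than a read of 59 bases.
H2-K1: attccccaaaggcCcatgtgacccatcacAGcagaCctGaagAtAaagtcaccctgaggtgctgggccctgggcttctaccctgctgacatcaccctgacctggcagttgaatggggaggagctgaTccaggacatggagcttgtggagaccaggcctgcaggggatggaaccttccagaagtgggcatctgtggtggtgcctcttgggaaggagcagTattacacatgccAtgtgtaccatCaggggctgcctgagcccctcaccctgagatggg
H2-D1: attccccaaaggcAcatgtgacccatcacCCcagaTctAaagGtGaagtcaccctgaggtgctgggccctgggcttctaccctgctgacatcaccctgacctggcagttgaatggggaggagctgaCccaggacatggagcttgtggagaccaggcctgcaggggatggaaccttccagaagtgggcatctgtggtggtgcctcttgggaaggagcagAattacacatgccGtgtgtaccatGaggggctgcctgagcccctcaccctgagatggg
For this reason the tests of the H2 genes used exon reads placed at a single site, and those of the other genes used all reads of the gene.

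Over whole transcripts, 6.19% of the 59-base windows of H2-K1 also occurred in transcripts of other genes, against 8.53% for H2-D1 and 10.7% for H2-T23. H2-K1 and H2-D1 had 73 such windows in common. In the libraries, at least 95.8% of the exon reads of H2-K1 were placed at a single site, at least 87.4% of those of H2-D1 and at least 80.5% of those of H2-T23. The deposited RPKM values rest on all exon reads and so include the shared ones. The mice were 129/sv and the reference genome is that of C57BL/6J, and the effect of strain differences on the placing of H2 reads was not tested.

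Promoter sequence from RefSeq (GRCm38.p6) was matched by symbol for 8 of the 10 genes, and not for Tap2 and Nlrc5. In the 250 bases before the start site, both strands were searched for an NF-kB-type motif, GGNNTTNCC, and for 2 forms of the interferon-response letters, GAANNGAAA and AAANNGAAA. The windows of H2-K1 (chr17:34000348-34000597, minus strand) and B2m (chr2:122147437-122147686, plus strand) are shown because they lie outside annotated exons, except for 1 base of B2m. The windows of H2-D1, Psmb8, Psmb9, Tap1 and Tapbp had all 250 bases in annotated exons of the same or a neighbouring gene, and that of H2-T23 had 154. Capitals mark matches to these 3 motifs on either strand.
H2-K1: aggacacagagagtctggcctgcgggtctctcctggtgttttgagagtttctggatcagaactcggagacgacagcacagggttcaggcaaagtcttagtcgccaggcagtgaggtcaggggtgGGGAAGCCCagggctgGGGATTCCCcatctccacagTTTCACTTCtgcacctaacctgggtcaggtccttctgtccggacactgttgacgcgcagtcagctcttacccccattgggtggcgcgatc
B2m: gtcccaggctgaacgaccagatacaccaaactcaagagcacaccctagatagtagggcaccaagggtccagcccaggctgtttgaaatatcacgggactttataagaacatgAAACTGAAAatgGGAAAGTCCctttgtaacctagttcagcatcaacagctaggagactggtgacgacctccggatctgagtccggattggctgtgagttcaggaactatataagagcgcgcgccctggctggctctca
The H2-K1 and B2m windows each held both kinds of motif close together and without overlap.

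GGNNTTNCC occurred in 3 of the 8 windows (H2-K1, H2-D1 and B2m) and in 13.5% of all 32851 promoter windows. AAANNGAAA occurred in B2m and H2-T23, against 9.37% of all windows, and GAANNGAAA in H2-K1 and H2-D1, against 6.31%. H2-K1 and H2-D1 shared a run of 47 bases in these windows. The CCAAT box, CCAAT, was found in 7 of 8 windows (all but Psmb8), against 33.8% of all windows, and TGACG, part of the cyclic AMP response element, in 5 of 8, against 17.8%. TGGAAA, the core of the element bound by NFAT5, was found in 4 of 8 (Psmb8, Psmb9, Tap1 and H2-T23), against 18.6%. The match of Psmb9 and that of Tap1 are the same letters, since both genes start from opposite strands of 1 region, and they overlap the CCAAT box there. The CCAAT and TGACG matches of Psmb9 and Tap1 are likewise the same letters, counted once for each gene. These matches describe letters and not bound sites.

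**Figure D1:**
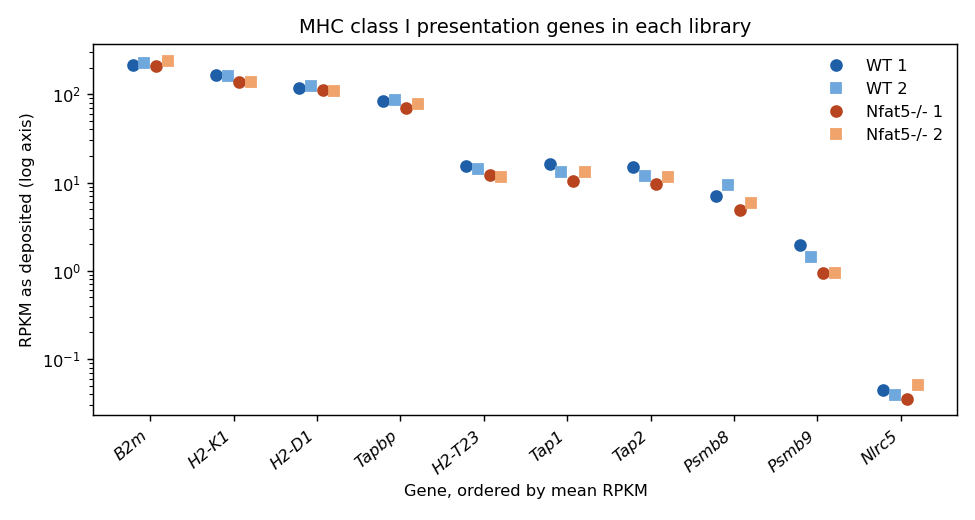
RPKM of each class I gene (log axis) in the 2 WT (blue) and 2 Nfat5-/- (orange) libraries, 1 point per library, with genes ordered by mean level. Levels ran from 222 RPKM for B2m to 0.0425 RPKM for Nlrc5, and the groups overlapped for B2m and Nlrc5.

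The genes covered a wide range of levels. B2m led with a mean of 222 RPKM over the 4 libraries, followed by H2-K1 with 150, H2-D1 with 116 and Tapbp with 79.2. H2-T23 with 13.3, Tap1 with 13.2 and Tap2 with 12 RPKM formed a second tier, in which the ranges of neighbouring genes overlapped. Psmb8 (6.77 RPKM), Psmb9 (1.32) and Nlrc5 (0.0425) followed, each with a range clear of its neighbours. The order was thus distinct except among H2-T23, Tap1 and Tap2, as the plot of levels by library shows.

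None of the class I genes passed the threshold between the genotypes, an edgeR quasi-likelihood test with Benjamini-Hochberg adjustment over all genes and an adjusted p under 0.05. Of the 10 genes, 9 were tested and 0 were called, where 1.27% of all genes tested were called on gene reads and 1.87% on uniquely placed exon reads (0.325% and 0.471% with the lower value in Nfat5-/- KCs). DESeq2 called 0 as well, and so did limma-trend on log2(RPKM + 1). An unadjusted p under 0.05, with the lower value in Nfat5-/- KCs, was reached by 3 genes (H2-K1, Psmb8 and Psmb9) in edgeR, by 2 in DESeq2 and by 4 in limma-trend. In the edgeR fits, 6.47% of all genes on gene reads and 6.73% on uniquely placed exon reads did so. The shares of all genes were not counted for DESeq2, limma-trend or the fits with 1 library left out. The member counts from those fits therefore have no background to be read against. The edgeR count of class I genes at an unadjusted p under 0.05 was 0 without the first Nfat5-/- library, 1 without the first WT library, 4 without the second WT library and 3 without the second Nfat5-/- library.

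The sign of the difference was negative (lower in Nfat5-/- KCs) in 8 of the 9 tested genes, with B2m as the exception. Among all genes, 52% had a negative sign. The median log2 fold change of the 9 genes was -0.31, beside -0.01 over all genes. In RPKM, both Nfat5-/- libraries lay under both WT libraries in 8 of the 10 genes, a pattern that 25% of all genes tested showed. The opposite pattern was seen in 0 of the 10 and in 21.6% of all genes tested. These genes were measured in the same 4 libraries and are not independent of each other.

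**Figure D2:**
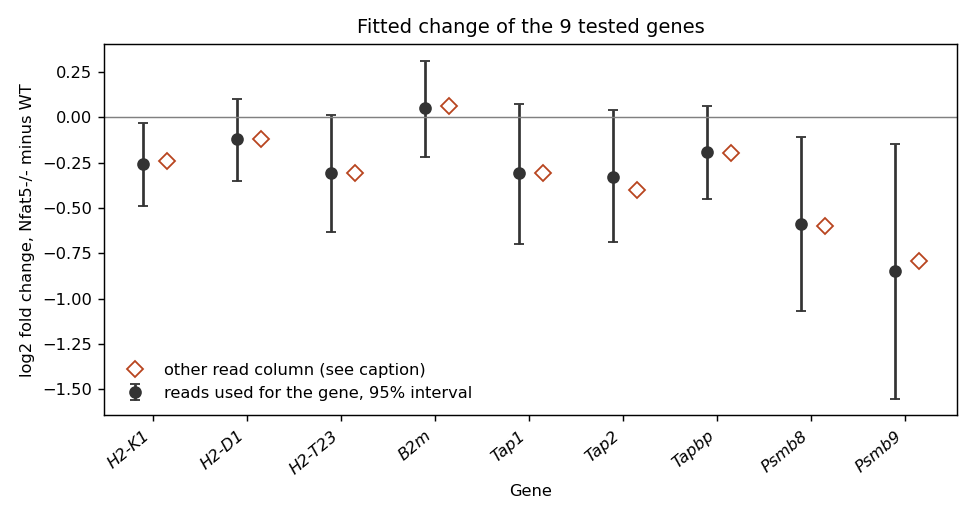
Log2 fold change (Nfat5-/- minus WT) of the 9 tested class I genes, with 95% intervals from the edgeR fit (filled points). Open diamonds give the value from the other read column, which is all gene reads for the H2 genes and uniquely placed exon reads for the rest. The intervals of H2-K1, Psmb8 and Psmb9 lie below 0 before any adjustment.

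H2-K1 encodes a classical heavy chain that presents peptides to CD8+ T cells (gene at chr17:33996017-34000333). Its level was 167 and 159 RPKM in WT KCs against 136 and 136 RPKM in Nfat5-/- KCs. The mean of 136 RPKM (SD 0.0628, n = 2) was 16.6% under that of WT, 163 RPKM (SD 5.82, n = 2). Both Nfat5-/- libraries lay under both WT libraries. The log2 fold change on uniquely placed exon reads was -0.26 ± 0.10 (95% interval -0.49 to -0.03, edgeR adjusted p = 0.276), and it was -0.24 on all gene reads.

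H2-D1, the other classical heavy chain, lies further along the same chromosome (chr17:35262730-35267499). It had 119 and 124 RPKM in WT KCs against 111 and 109 RPKM in Nfat5-/- KCs. The groups did not overlap, but the difference was small, with a log2 fold change of -0.12 ± 0.10 (interval -0.35 to 0.10, edgeR adjusted p = 0.619). H2-D1 stood at 71.3% and 77.7% of the H2-K1 level in WT and at 81.8% and 80.2% in Nfat5-/- KCs.

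H2-T23 encodes Qa-1, a non-classical heavy chain that presents leader peptides of other class I molecules to the NK cell receptor CD94/NKG2A (chr17:36029773-36032855). Its levels were 15.3 and 14.2 RPKM in WT KCs against 12.3 and 11.5 RPKM in Nfat5-/- KCs, again without overlap. The log2 fold change was -0.31 ± 0.14 (interval -0.63 to 0.01, edgeR adjusted p = 0.339).

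B2m, the light chain that all these heavy chains need to reach the cell surface, is the gene of this group on chromosome 2 (chr2:122147686-122153083). It had 214 and 226 RPKM in WT KCs against 209 and 239 RPKM in Nfat5-/- KCs, so the libraries of the groups were interleaved. The log2 fold change was 0.05 ± 0.11 (interval -0.22 to 0.31, edgeR adjusted p = 0.894). Without the second Nfat5-/- library it was -0.07.

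B2m lies wholly within the span of the antisense gene Patl2, and the library kit named in the labels does not mark strand. Unspliced Patl2 RNA from this span therefore cannot be told from B2m by strand. Between 27.1% and 28.1% of its exon reads were marked as uniquely placed, and in each library all of them, or all but 1, crossed an exon junction (827 of 827 in the first WT library). Yet 0 of the 802 windows of 59 bases in its transcript occurred, on either strand, in transcripts of another gene. The annotated transcripts of B2m and Patl2 thus share no stretch of read length. Why few reads were marked as uniquely placed was not tested. The uniquely placed reads gave a log2 fold change of 0.06.

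Relative to B2m, each heavy chain had a smaller share in Nfat5-/- KCs. H2-K1 stood at 78.3% and 70.5% of the B2m level in WT and at 65.1% and 57.0% in Nfat5-/- KCs, as a ratio of RPKM. The 3 heavy chains summed came to 141% and 132% of B2m in WT and to 124% and 108% in Nfat5-/- KCs. The groups did not overlap in these ratios. With 2 libraries per group no exact two-sided test over libraries can give a p under 0.333, and the ratios were not tested.

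Tap1 and Tap2 encode the subunits of the peptide transporter. They lie with Psmb8 and Psmb9 in a cluster of 34.3 kb (chr17:34181988-34216321). Tap1 had 16.2 and 13.2 RPKM in WT KCs against 10.3 and 13.0 RPKM in Nfat5-/- KCs, and Tap2 had 15.0 and 12 RPKM in WT KCs against 9.61 and 11.6 RPKM in Nfat5-/- KCs. In both genes the first WT library was the highest and the first Nfat5-/- library the lowest, while the other two libraries were almost level. The log2 fold changes were -0.31 for Tap1 (SE 0.16, edgeR adjusted p = 0.434) and -0.33 for Tap2 (SE 0.16, edgeR adjusted p = 0.394). Leaving out 1 library at a time, the value of Tap1 lay between -0.51 without the second Nfat5-/- library and -0.13 without the first. That of Tap2 lay between -0.49 without the second WT library and -0.14 without the first.

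The subunits kept a similar proportion in every library. Tap2 stood at 92.9% and 90.4% of the Tap1 level in WT and at 93.3% and 88.7% in Nfat5-/- KCs. Tap2 overlaps the antisense gene Gm15821, and between 74.5% and 80.3% of its exon reads were uniquely placed. On those reads its log2 fold change was -0.40 (edgeR adjusted p = 0.299).

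Tapbp encodes tapasin, which bridges TAP and the empty class I molecule (chr17:33915899-33929288). It had 84.3 and 85.8 RPKM in WT KCs against 69.3 and 77.2 RPKM in Nfat5-/- KCs, with no overlap between the groups. The log2 fold change was -0.19 ± 0.11 (interval -0.45 to 0.06, edgeR adjusted p = 0.462), and it was -0.10 without the first Nfat5-/- library and -0.29 without the second. Its span overlaps that of Zbtb22 on the same strand by 3421 bases. Of its transcript windows, 21.5% occurred in other transcripts, with 19.3% in Gm19412, a gene annotated as antisense, and 0.872% in Zbtb22. Yet at least 99.1% of the exon reads of Tapbp were marked as uniquely placed.

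The immunoproteasome subunits had the lowest ratios of Nfat5-/- to WT level of the class I genes over all 4 libraries. Without the second WT library Psmb8 had a log2 fold change of -0.37, above those of Tap2 (-0.49), Tap1 (-0.46) and H2-T23 (-0.38). Psmb8 (chr17:34197721-34201454) encodes the subunit that replaces the constitutive Psmb5 when the immunoproteasome forms. Its level was 6.98 and 9.34 RPKM in WT KCs against 4.82 and 5.92 RPKM in Nfat5-/- KCs, a mean 34.2% lower. The WT libraries differed from each other by more than the nearest libraries of the groups did. The log2 fold change was -0.59 ± 0.20 (interval -1.07 to -0.11), with an adjusted p of 0.255 in edgeR. Without a filter on low counts the same gene passed the threshold (edgeR adjusted p = 0.0368), in a fit that called 6.3% of the 18043 genes tested.

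Psmb9 (chr17:34181988-34187764) replaces Psmb6 in the immunoproteasome. Its level was 1.97 and 1.42 RPKM in WT KCs against 0.939 and 0.935 RPKM in Nfat5-/- KCs, a mean 44.8% lower. These levels rested on 55 and 55 reads in WT and on 38 and 30 reads in Nfat5-/- KCs. The log2 fold change of -0.85 ± 0.30 (interval -1.55 to -0.15) had an adjusted p of 0.263 in edgeR. Psmb9 and Tap1 overlap by 212 bases on opposite strands, and at least 94.3% of the exon reads of Psmb9 were uniquely placed.

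**Figure D3:**
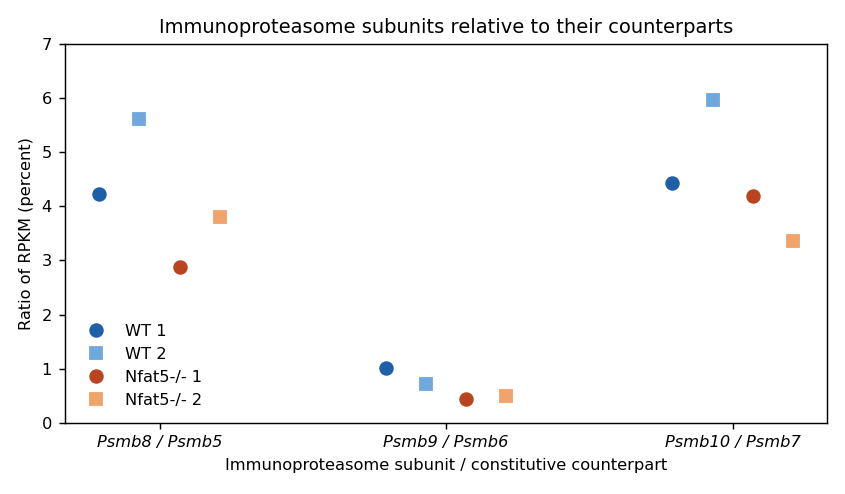
RPKM of each immunoproteasome subunit as a percentage of the constitutive subunit it replaces, 1 point per library, for 2 WT (blue) and 2 Nfat5-/- (orange) libraries. Both Nfat5-/- libraries lie under both WT libraries in each of the 3 pairs, closely so for Psmb10 / Psmb7 (4.44 against 4.19).

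The constitutive counterparts had fitted changes near 0. Psmb5 had a log2 fold change of -0.01, Psmb6 of 0.06 and Psmb7 of -0.06, each with an SE of 0.10 or 0.11. Psmb8 stood at 4.22% and 5.62% of Psmb5 in WT and at 2.87% and 3.8% in Nfat5-/- KCs, and Psmb9 at 1.02% and 0.716% of Psmb6 in WT and at 0.432% and 0.504% in Nfat5-/- KCs. Psmb10, the third exchanged subunit, stood at 4.44% and 5.97% of Psmb7 in WT and at 4.19% and 3.36% in Nfat5-/- KCs. In all libraries the constitutive transcripts thus far outnumbered the exchanged ones, per length.

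Nlrc5, the transactivator of class I genes (chr8:94434356-94527272), was close to the limit of detection. It had 8 and 9 gene reads in WT and 10 and 14 in Nfat5-/- KCs, or 0.0442, 0.0387, 0.0356 and 0.0513 RPKM in the same order. The smallest level taken as detectable was 3 reads. The gene did not pass the filter on low counts and was not tested in the main comparison. Without that filter its log2 fold change was 0.38 ± 0.62 (edgeR adjusted p = 0.855), and no difference was detectable at this depth.

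On chromosome 17, 8 of the 10 genes lie in a stretch of 2.12 Mb from Tapbp to H2-T23. The other genes of this stretch were looked at after the values of the class I genes were known. Of the 76 tested, 38 (50%) had a negative log2 fold change and the median was 0. The 1 gene called among them, Ly6g6c, was not lower in Nfat5-/- KCs.

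Further genes of the pathway were taken from a list of 41 other class I genes, with 20 heavy chain or class I-like genes and 21 genes of processing, loading and regulation. Of 28 tested, 0 were called in edgeR, 19 had a negative log2 fold change and the median was -0.18. An unadjusted p under 0.05 was reached by 7, all with lower values in Nfat5-/- KCs, which 6.47% of all genes tested on gene reads did. The number at an unadjusted p under 0.05 was 4 in DESeq2 and 2 in edgeR without the second Nfat5-/- library. DESeq2 called 1 of the 28, Calr, and 3.39% of all genes tested. Shares of all genes at an unadjusted p under 0.05 were not counted for DESeq2 or with a library left out. The 7 tested heavy chain genes had a median of -0.36 and the 21 others a median of -0.06.

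Among these genes, Hfe, a class I-like regulator of iron uptake, had the lowest log2 fold change, -0.85 ± 0.48, at 0.177 RPKM or less in every library. Nfya, a subunit of the factor that binds CCAAT boxes, had the highest, 0.29 ± 0.13 (edgeR adjusted p = 0.38). Other genes were picked after their values had been seen. Psmb10 had 8.12 and 10.4 RPKM in WT KCs against 7.41 and 5.35 RPKM in Nfat5-/- KCs, with a log2 fold change of -0.55 ± 0.21 (edgeR adjusted p = 0.304).

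Calr encodes calreticulin, a chaperone that holds the heavy chain during peptide loading. It had 840 and 781 RPKM in WT KCs against 618 and 615 RPKM in Nfat5-/- KCs, with a log2 fold change of -0.38 ± 0.10 (edgeR adjusted p = 0.141). Rfxank, a subunit of the RFX complex that binds class I and class II promoters, had 4.74 and 4.73 RPKM in WT KCs against 2.85 and 3.15 RPKM in Nfat5-/- KCs. Its log2 fold change was -0.63 ± 0.15 (edgeR adjusted p = 0.105) on gene reads, and -0.84 with an adjusted p of 0.0443 on uniquely placed exon reads. At least 64.4% of its exon reads were uniquely placed.

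**Figure D4:**
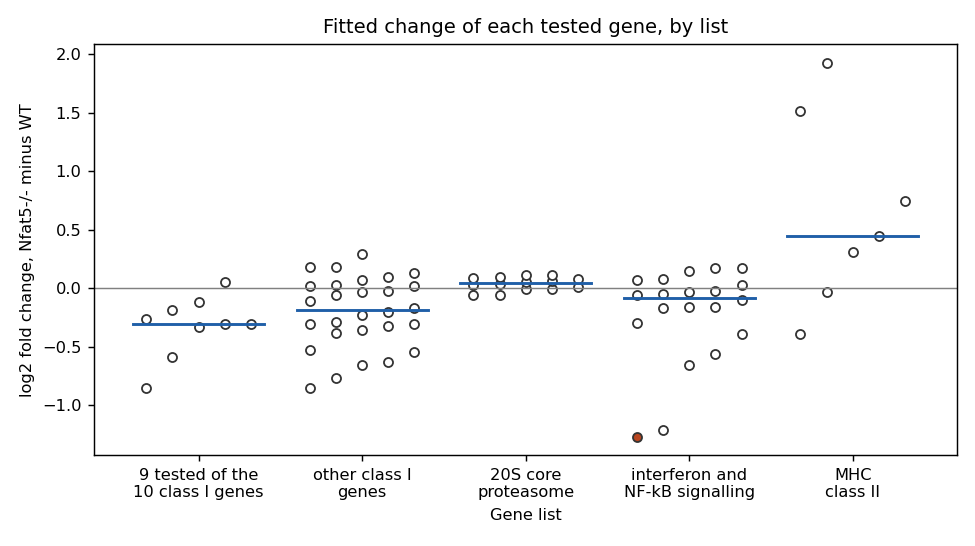
Log2 fold change (Nfat5-/- minus WT) of every tested gene in 5 lists, 1 point per gene, with the median of each list as a blue line and genes past the edgeR threshold filled. The 14 genes of the 20S core lie between -0.06 and 0.11, and Irf9 is the filled point at -1.27.

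The 20S core proteasome, whose 14 constitutive subunits form the standard particle, was tightly grouped. All 14 were tested, 0 were called or reached an unadjusted p under 0.05 in edgeR, and the log2 fold changes ran from -0.06 to 0.11 with a median of 0.04. Psma6 had the highest value (0.11 ± 0.10) and Psmb4 the lowest (-0.06 ± 0.11). Psmb8 and Psmb9 lay below this whole range.

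Of 21 genes of interferon and NF-kB signalling, 20 were tested and 1 was called with a lower value, beside 0.325% of all genes. Irf9, the DNA-binding subunit of the complex that type I interferon activates, fell from 6.96 and 6.71 RPKM in WT to 3.12 and 2.49 RPKM in Nfat5-/- KCs. Its log2 fold change was -1.27 ± 0.16 (edgeR adjusted p = 0.0203). The call was lost when either Nfat5-/- library was left out, with a log2 fold change of -1.43 without the first and -1.13 without the second. The list as a whole had 14 negative values and a median of -0.08. The study names Irf9 from these same libraries, so its place in the list is not independent evidence.

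Irf7 and Stat2, which act with Irf9 in the interferon response, did not pass the threshold. Irf7 had a log2 fold change of -1.21 (edgeR adjusted p = 0.0811) and Stat2 of -0.66 (edgeR adjusted p = 0.304). The interferon receptor subunit Ifngr1 had 0.07 and the NF-kB subunit Rela -0.05. These genes other than Irf9 were picked after their values were seen.

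Class II genes, which present peptides to CD4+ T cells, had the opposite sign where they differed most. Of 12 listed, 7 were tested and 0 were called in edgeR, with a median log2 fold change of 0.45. An unadjusted p under 0.05 was reached by 2, both with the higher value in Nfat5-/- KCs. The share of all genes that did so with a higher value was not counted, so this count has no background. H2-Aa had 0.319 and 0.519 RPKM in WT KCs against 1.91 and 1.34 RPKM in Nfat5-/- KCs, with a log2 fold change of 1.93 ± 0.41 (edgeR adjusted p = 0.0619). H2-DMb1 had the lowest value, -0.39 ± 0.29. Ciita, the transactivator of class II genes, had 0 RPKM in all libraries, and H2-Aa stayed far below the level of the classical class I heavy chains.

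Some genes listed as markers of other cells moved with the genotype beside these results. Tyrp1 was listed for pigment cells and Acta2 for contractile cells, and which cells held these RNAs was not tested. The summed level of 5 smooth muscle markers was 184 and 151 RPKM in WT KCs against 518 and 819 RPKM in Nfat5-/- KCs, and all 4 that were tested rose past the threshold (Acta2, Tagln, Cnn1 and Myh11). Most of this sum was Acta2, with 164 and 134 RPKM in WT KCs against 450 and 723 RPKM in Nfat5-/- KCs. The untested marker Des had 0.0199 RPKM in the first WT library and 0 RPKM in the others. The summed level of 6 melanocyte markers was 7.54 and 7.20 RPKM in WT KCs against 2.30 and 3.20 RPKM in Nfat5-/- KCs, and Tyrp1 fell past the threshold. The sum was carried by Tyrp1, Pmel and Dct, while Mlana overlapped between the groups and Mitf had 0.249 and 0.204 RPKM in WT KCs against 0.258 and 0.315 RPKM in Nfat5-/- KCs. Acta2 and Tagln stayed past it when any 1 library was left out, while Cnn1 and Tyrp1 lost the call without either Nfat5-/- library and Myh11 without any 1 of the 4. With 1 library left out, the log2 fold change lay between -2.35 and -1.76 for Tyrp1, 1.66 and 2.56 for Cnn1, and 4 and 5.21 for Myh11. The part of these markers in the class I values was not tested. Of the leukocyte markers, the T cell gene Trdc had 0 RPKM and the Langerhans cell gene Cd207 at most 0.0344 RPKM. The T cell gene Cd3g had 0.0588 and 0.397 RPKM in WT KCs against 0.243 and 0.102 RPKM in Nfat5-/- KCs. Cd3e reached 0.185 RPKM and the pan-leukocyte gene Ptprc 0.176 RPKM, and all 3 were highest in the second WT library. Csf1r of macrophages had the lowest log2 fold change among them, -0.49 ± 0.42. Fibroblast markers summed to 1.13 RPKM or less (highest value Pdgfra, 0.78 ± 0.41) and endothelial markers to 0.751 RPKM or less (lowest value Pecam1, -0.70 ± 0.33). Of the KC markers, Krt15 had the highest value (1.39 ± 0.60) and Itga6 the lowest (-0.42 ± 0.13), and 0 of 7 were called in edgeR, with 1 at an unadjusted p under 0.05.

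The genes whose profile over the 4 libraries lay closest to the mean profile of the 9 tested class I genes were Trim2, Frg2f1, Letm2, Gstm5 and Marf1. Closeness was the Euclidean distance between log2 CPM (counts scaled to library totals) values centred on each gene's mean, and it ran from 0.0378 for Trim2 to 0.0517 for Marf1. Trim2 stood at 0.19 and 0.15 in WT and at -0.25 and -0.10 in Nfat5-/- KCs on this scale, and the class I mean at 0.20, 0.12, -0.24 and -0.08. The 5 genes had log2 fold changes between -0.40 and -0.29, and their edgeR adjusted p ranged from 0.247 to 0.74.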

How the data were processed

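Poly(A) RNA of 2 WT and 2 Nfat5-/- KC cultures was sequenced as single reads. The authors aligned the trimmed reads to GRCm38 in CLC Genomics Workbench under default settings, and per the file headers deposited read counts per gene (gene, exon, intron, and uniquely placed) and RPKM values, which the authors scaled to exon length and mapped reads. The labels name the NEBNext Ultra II RNA kit, whose version without the word directional does not mark strand. Strand therefore does not tell reads of a gene from those of its antisense partner. The handling of strain differences is not given in the sources used here. Groups and replicate numbers came from the sample titles. The series describes 2 experiments per genotype and the study speaks of sibling mice. Which animal gave which library is not given in the sources used here, so p-values measure the spread between these samples.

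Gene reads, and for H2 genes uniquely placed exon reads, were tested with edgeR 4.0.16 in R 4.3.3 (filterByExpr, TMM, quasi-likelihood, two-sided, genotype as the sole term). This left 12614 and 11680 genes, and Benjamini-Hochberg adjustment ran over all of them (threshold 0.05). The SE is the log2 fold change divided by the square root of F. Depth is 16219445 to 23494436 gene reads, and 3 reads equal 0.128 to 0.185 CPM, which covers counting error only since no molecular identifiers were used. Windows of 59 bases were compared across GENCODE M21 transcripts. Alternatives were DESeq2 1.42.0, limma-trend (limma 3.58.1) on log2(RPKM + 1) and log2(RPKM + 0.1) for genes that pass filterByExpr on exon reads, other scaling, filters, read columns and thresholds, a replicate block, and each library left out in turn. Leaving out libraries for Irf9 and the cell markers, and the chromosome 17 stretch, were added after seeing the data.

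The 10 genes, the other lists and the tests were chosen with earlier results of these data known. Named genes are all 10 members, from each list those past the threshold or otherwise its highest and lowest value, the constitutive subunits Psmb5, Psmb6 and Psmb7, and the 5 genes of closest profile. Psmb10, Calr, Rfxank, Irf7, Stat2, Ifngr1, Rela, Ciita, Cd68, Pmel, Dct, Mlana, Mitf, Des, Trdc, Cd207, Cd3g, Cd3e, Ptprc and Ly6g6c were named beside these after their values were seen. Of the markers listed, Itgam was not analysed here.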

Additional observations from a re-analysis of the deposited data

How the results depend on the processing

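Over 15 alternative settings the log2 fold changes of H2-K1, H2-D1, H2-T23, Tap1, Tap2, Tapbp, Psmb8 and Psmb9 kept their negative sign. B2m turned to -0.07 without the second Nfat5-/- library, from 0.05. The count of class I members called was 0 in every setting except the fit without a filter on low counts, where it was 1 (Psmb8, -0.59, adjusted p = 0.0368, with 0.0368 to 0.545 over the alternatives). Leaving out 1 library at a time gave 0 called members each time. For B2m the log2 fold change then ranged from -0.07 to 0.16, for Psmb9 from -1.05 to -0.63 (and -0.47 in limma-trend on log2(RPKM + 1) with all libraries, against -0.85), for Psmb8 from -0.77 (without the first WT library) to -0.37 (without the second), for Tap1 from -0.51 (without the second Nfat5-/- library) to -0.13 (without the first), for Tap2 from -0.49 (without the second WT library) to -0.14 (without the first) and for Tapbp from -0.29 (without the second Nfat5-/- library) to -0.10 (without the first). The other class I genes called went from 0 to 2 without a filter (Calr and Rfxank), to 1 in DESeq2 (Calr) and to 1 on uniquely placed exon reads (Rfxank).

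Over all genes, 160 were called on gene reads, 1137 without a filter, 427 in DESeq2, 364 at an adjusted p under 0.1, 144 and 166 in limma-trend. Leaving out 1 library gave 16 to 478 calls (16 without the second and 31 without the first Nfat5-/- library, 268 without the first and 478 without the second WT library). On uniquely placed exon reads, 218 were called, 1076 without a filter, 407 in DESeq2, 438 at 0.1, 362 with library totals, and 48 to 348 with 1 library left out (48 without the second and 127 without the first Nfat5-/- library, 348 without the second WT library). The lone library left in a group is assumed to vary like the other group. The cause of these shifts was not tested.

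Whether same-numbered libraries form pairs is not given in the sources used here. Same-numbered libraries correlated at -0.0652 in their deviations from the group means, and this value cannot show whether they share siblings or preparation. With a replicate block, 132 genes were called on gene reads, of which 109 were also called without it, 246 genes were called on uniquely placed exon reads, and 0 class I members were called. Nlrc5, at 14 reads or fewer per library, was tested only where the filter was dropped or 1 library left out, with log2 fold changes from -0.08 to 0.76.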
